A study of Homo sapiens with 4 samples.

Results

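The Iroquois genes IRX1, IRX2, IRX4, IRX3, IRX5 and IRX6 lie in 2 clusters of the human genome, and their coverage by H3K27me3, trimethylation of histone H3 at lysine 27, is described here. The members are the H3K27me3 peaks that overlapped 1 of 2 windows by at least 1 bp. The IRX4-IRX2-IRX1 window ran on chromosome 5 from 1850000 to 3650000 and the IRX3-IRX5-IRX6 window on chromosome 16 from 54280000 to 55400000, both in build hg19 and both with the long stretches between the genes included. They held 115 of the 22045 peaks of the series, of which 71 were among the 13155 peaks of the AKBA list and 44 among the 8890 peaks of the DMSO list. HaCaT cells, an immortalised human keratinocyte line, were cultured for 12 hours with AKBA or with its solvent control DMSO. Each condition had 1 H3K27me3 library with a peak list, and 1 input DNA library whose values were not analysed here. AKBA is the usual abbreviation of an acetylated boswellic acid, which the labels do not spell out, with the dose not given in the sources used here. With 1 library per condition, differences between the lists have no replicate check, and none is tested. Sequencing depth is unknown, and sequence outside a list may carry the mark below the threshold of the authors' peak calling.

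Iroquois proteins are transcription factors of the TALE class of homeodomain proteins, and they pattern the heart, limbs, nervous system and other organs of vertebrate embryos. The human genes form 2 paralogous clusters of 3 genes each, separated by long stretches that are poor in protein-coding genes. Polycomb repressive complex 2 deposits H3K27me3, a mark of silenced developmental genes, and CpG-rich gene starts are frequent targets of that complex in mammals. In mouse, IRX4 is known for its role in the ventricles of the heart, IRX1 and IRX2 for their expression in the developing lung, IRX3 and IRX5 for roles in the heart and limb, and IRX6 for its role in bipolar cells of the retina.

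A RefSeq gene table of build GRCh38.p14 gave the order of the genes. It listed 8 genes between IRX4 and IRX2, of which 1 was annotated as protein-coding and 6 as long non-coding RNAs (lncRNAs), and 10 genes with 0 protein-coding ones between IRX2 and IRX1. Between IRX3 and IRX5 it listed 8 genes, all lncRNAs and among them CRNDE, the neighbour of IRX5. Between IRX5 and IRX6 it listed 5 genes, none protein-coding. Because this table and the peaks are in different builds, no peak was assigned to a gene, exon, intron or promoter. The ends of the windows are called by the outermost gene on that side: the IRX4 end and the IRX1 end on chromosome 5, and the IRX3 end and the IRX6 end on chromosome 16.

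Promoter sequences of 250 bases before to 50 after the gene start were listed by RefSeq (GRCh38.p14) for 3 of the 6 members, IRX4, IRX2 and IRX1, and for neither IRX3, IRX5 nor IRX6. The starts of IRX1 and IRX2 are shown because these genes have 1 listed start each, and because CpG content is a sequence property tied to Polycomb targeting. Whether it bears on the marking of the clusters was not tested. Capitals mark the CpG dinucleotides, 38 in IRX1 and 34 in IRX2. The coordinates are those of GRCh38.p14 and cannot be set against the hg19 peaks.
IRX1, chr5:3595582-3595881, plus strand: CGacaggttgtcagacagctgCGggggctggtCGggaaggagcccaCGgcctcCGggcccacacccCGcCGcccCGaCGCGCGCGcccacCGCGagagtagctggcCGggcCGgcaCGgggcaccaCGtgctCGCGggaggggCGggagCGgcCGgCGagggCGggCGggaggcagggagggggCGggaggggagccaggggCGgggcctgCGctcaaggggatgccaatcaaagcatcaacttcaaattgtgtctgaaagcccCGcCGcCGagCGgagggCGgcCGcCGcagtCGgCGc
IRX2, chr5:2751628-2751927, minus strand: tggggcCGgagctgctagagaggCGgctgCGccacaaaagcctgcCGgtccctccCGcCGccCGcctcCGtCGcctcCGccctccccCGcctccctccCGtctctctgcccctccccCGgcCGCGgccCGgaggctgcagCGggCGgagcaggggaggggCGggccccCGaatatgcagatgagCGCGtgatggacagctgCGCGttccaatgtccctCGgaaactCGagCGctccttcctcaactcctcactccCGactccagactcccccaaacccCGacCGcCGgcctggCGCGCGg
The table held 35116 promoters with a median of 14 CpG dinucleotides. At least 38 were found in 9.91% of them and at least 34 in 15.6%. The 3 listed starts of IRX4 held 47, 36 and 44, and at least 47 were found in 2.41% of all promoters.

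The first question was how densely the 2 clusters were marked relative to their surroundings. Both clusters held more peaks per Mb and more covered sequence than the genome as a whole, and the IRX4-IRX2-IRX1 cluster more than the IRX3-IRX5-IRX6 cluster. In the IRX4-IRX2-IRX1 cluster the AKBA list had 31.1 peaks per Mb against 4.49 over the genome, a ratio of 6.92, and the DMSO list had 18.3 against 3.04, a ratio of 6.04. The IRX3-IRX5-IRX6 cluster had 13.4 AKBA and 9.82 DMSO peaks per Mb, 2.98 and 3.23 times the genome value of the same list. AKBA peaks covered 2.55% of the chromosome 5 window and 1.29% of the chromosome 16 window, against 0.501% of the genome. DMSO peaks covered 1.15% and 0.690% of the windows, against 0.259% of the genome. Genome values refer to the sequence between the first and the last peak of each chromosome.

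Stretches of the same length on either side of a window were less densely marked than the window in both lists. Beside the IRX4 end the AKBA list had 12.8 peaks per Mb and beside the IRX1 end 7.22, and the DMSO values were 11.1 and 1.67. Beside the IRX3 end the AKBA and DMSO lists had 3.57 and 1.79 peaks per Mb. Beside the IRX6 end they had 10.7 and 4.46, so the step in AKBA density at that end, against 13.4 inside the window, was the smallest of the 4. No test across libraries was possible for these contrasts, and they describe the 2 lists.

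**Figure D1:**
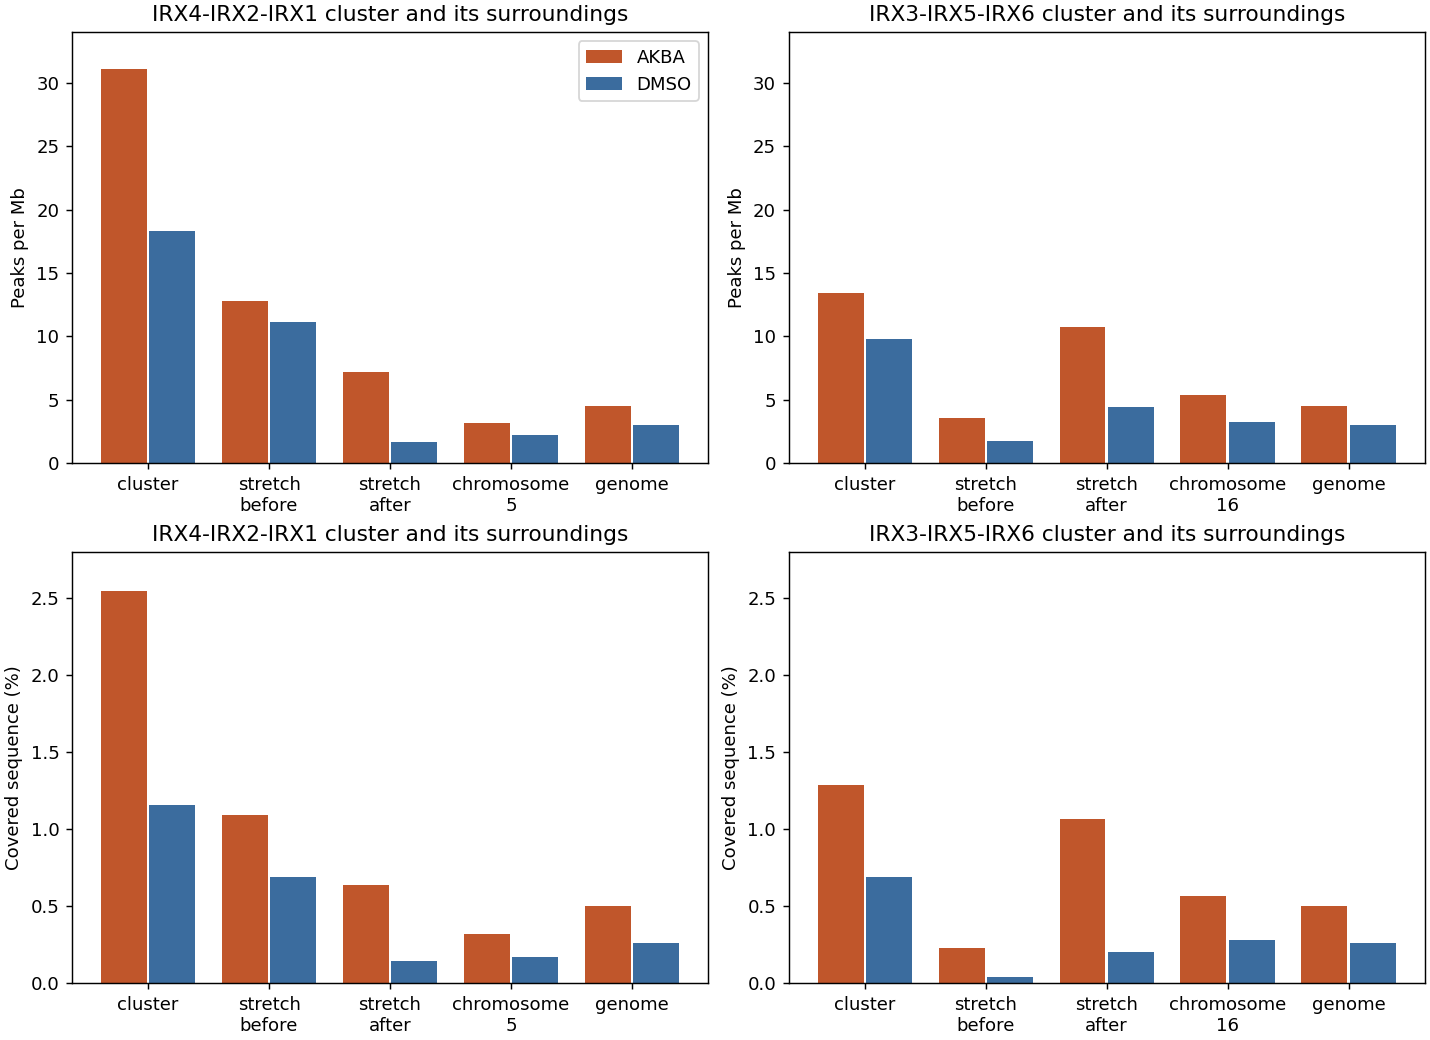
Peaks per Mb (top) and the share of sequence covered by peaks in percent (bottom) for each Iroquois cluster, the stretches of equal length before and after it, its chromosome and the genome, with AKBA bars left of DMSO bars. The highest bars are those of the IRX4-IRX2-IRX1 cluster, with 31.1 AKBA and 18.3 DMSO peaks per Mb.

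Of the 4 median peak widths, 3 were slightly above that of the whole list, and that of the AKBA peaks on chromosome 5 was below it. AKBA peaks of the IRX4-IRX2-IRX1 cluster had a median width of 585 bp and DMSO peaks one of 565 bp, against 742 and 552.5 bp over the whole lists. In the IRX3-IRX5-IRX6 cluster the medians were 778 bp (AKBA) and 563 bp (DMSO). No peak reached 5 kb in the clusters, and such peaks were rare in the whole lists too, at 1.84% of AKBA and 0.787% of DMSO peaks. Peaks of at least 2 kb numbered 6 of 56 AKBA peaks on chromosome 5 (10.7%, exact 95% Clopper-Pearson interval 4.03 to 21.9%) and 1 of 15 on chromosome 16, against 14.0% of the AKBA list. In the DMSO list they numbered 0 of 33 on chromosome 5 (interval 0 to 10.6%) and 1 of 11 on chromosome 16, against 9.43% of that list. These intervals include the values of the whole lists. They stand for counting error alone and take each peak as independent.

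**Figure D2:**
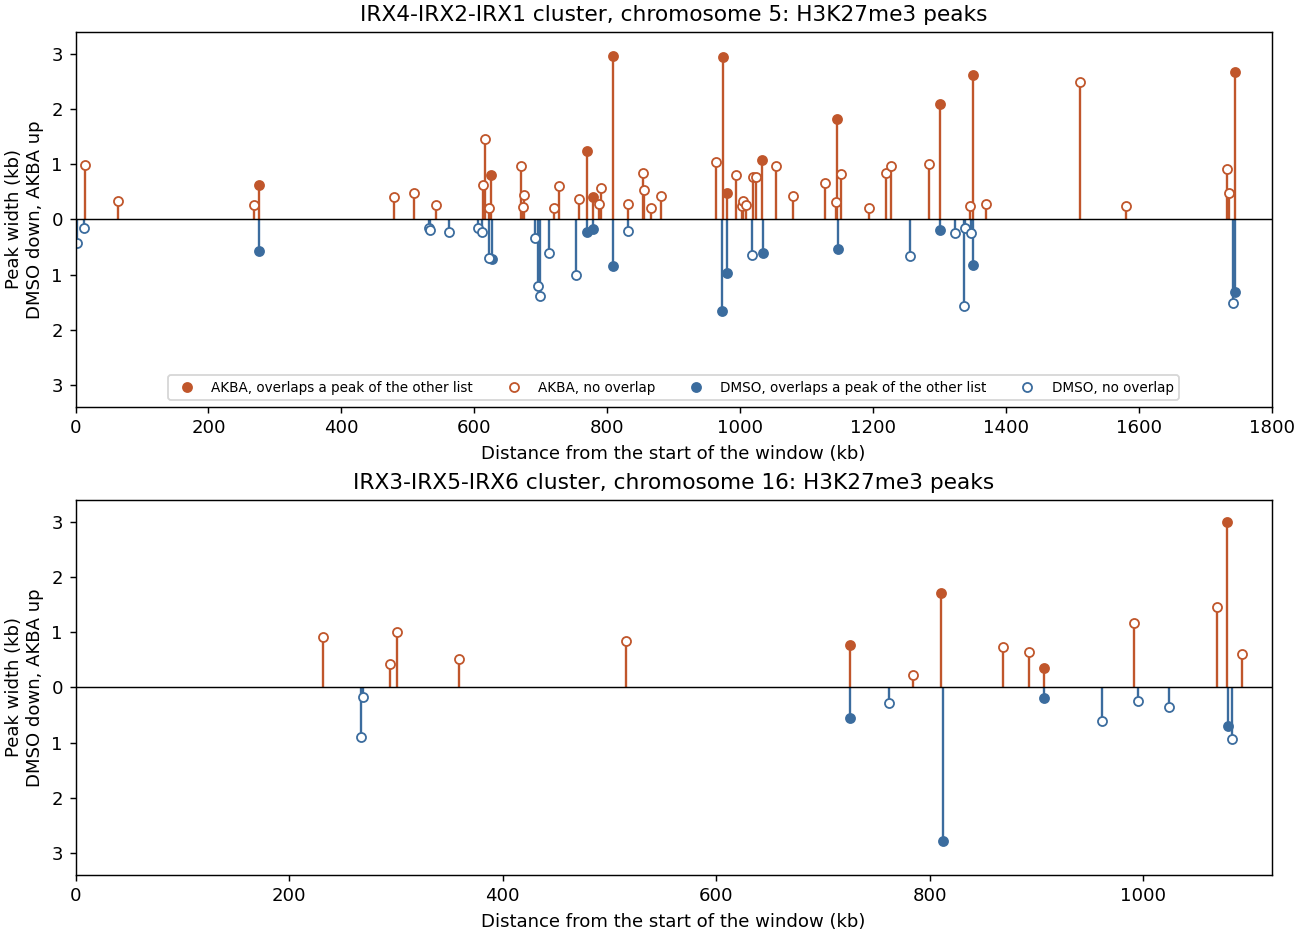
H3K27me3 peaks along the 2 windows, with the distance of the peak centre from the start of the window in kb on the x axis and the peak width in kb on the y axis, AKBA upwards and DMSO downwards. Filled points overlap a peak of the other list, and open points do not. The chromosome 16 window is empty in both lists over its first 231 kb, and the widest peaks are AKBA peaks of 3012 bp near the IRX6 end and 2967 bp in the chromosome 5 window.

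The second question was how the lists of the 2 conditions differed within each cluster. The AKBA list held more peaks and more covered sequence than the DMSO list in both clusters, on either side of the ratios of the whole genome. The IRX4-IRX2-IRX1 cluster had 56 AKBA and 33 DMSO peaks, a ratio of 1.70 with a 95% counting interval of 1.08 to 2.69, against 1.48 over the genome. The IRX3-IRX5-IRX6 cluster had 15 AKBA and 11 DMSO peaks, a ratio of 1.36 with an interval of 0.585 to 3.28. Both intervals include the ratio over the genome. They stand for counting error alone, take each peak as independent and hold no difference between replicates. Limiting both lists to their 8890 peaks of highest score gave a ratio of 1.06 on chromosome 5 and 0.636 on chromosome 16, where the excess was then on the DMSO side. With a score of at least 3 in both lists it was 0.857 on chromosome 16. The excess of AKBA peaks in the IRX3-IRX5-IRX6 cluster was thus absent under both settings.

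In the lists as deposited, the ratio of covered sequence was above that of peak number in both clusters. On chromosome 5 the covered length was 45.9 kb for AKBA and 20.8 kb for DMSO, a ratio of 2.21, with mean widths of 819 and 630 bp. On chromosome 16 it was 14.4 kb for AKBA and 7.72 kb for DMSO, a ratio of 1.87, with mean widths of 962 and 702 bp. The ratio over the genome, 1.94, lay between the 2 values. On chromosome 16 this order turned round when peaks up to 5 kb apart were joined, with a base ratio of 1.10 and a peak ratio of 1.67, and among peaks of at least 1 kb, with 2.99 and 5.0. The narrowest AKBA peak of the series was 214 bp and the narrowest DMSO peak 160 bp wide, and the part of this difference in the ratios was not tested.

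In bins of 10 kb with a peak of either list, AKBA bases were at least 2 times the DMSO bases in 38 of 57 bins on chromosome 5 and in 13 of 21 on chromosome 16. The shares, 66.7 and 61.9%, lay near the 59.4% found over the 14269 such bins of the genome. DMSO bases were at least 2 times the AKBA bases in 11 bins on chromosome 5 and in 5 on chromosome 16, 19.3 and 23.8%, against 19.4% of the bins of the genome. Bins with no base of the other list are among those counted.

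The third question was whether the same places within the clusters were marked. In the lists as deposited, most peaks of the clusters had no counterpart in the other list. In the IRX4-IRX2-IRX1 cluster 12 of 56 AKBA peaks overlapped a DMSO peak (21.4%, exact interval 11.6 to 34.4%), against 32.2% of the AKBA list, and 12 of 33 DMSO peaks overlapped an AKBA peak (36.4%, interval 20.4 to 54.9%), against 54.5% of the DMSO list. In the IRX3-IRX5-IRX6 cluster 4 of 15 AKBA peaks (26.7%, interval 7.79 to 55.1%) and 4 of 11 DMSO peaks (36.4%, interval 10.9 to 69.2%) overlapped. On chromosome 16 this did not hold for AKBA peaks with a score of at least 3, of which 3 of 6 overlapped, nor at equal peak numbers, where 57.1% of 7 did. All 4 shares of the deposited lists were below those of the whole lists, and each interval included the value of its list. Of the AKBA bases 15.3% on chromosome 5 and 17.0% on chromosome 16 lay inside DMSO peaks, against 33.2% over the genome. Of the DMSO bases 33.7 and 31.7% lay inside AKBA peaks, against 64.2%.

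**Figure D3:**
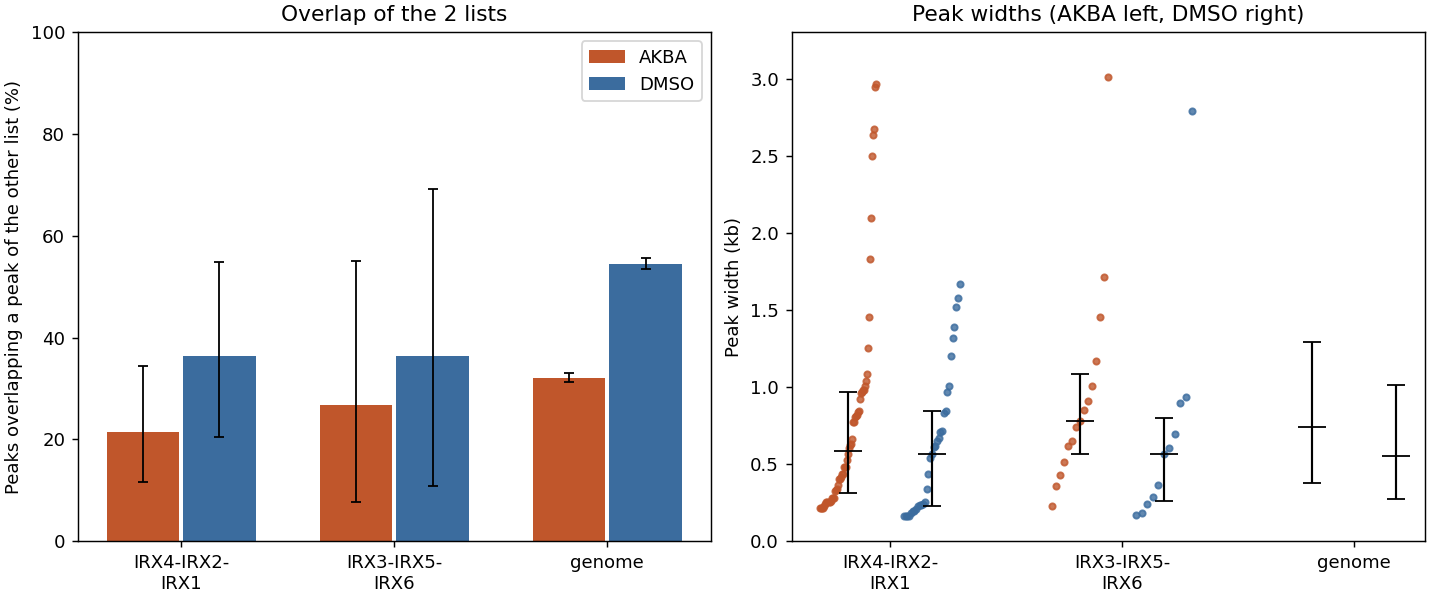
Left, the share of peaks that overlap a peak of the other list in percent, with exact 95% binomial intervals as error bars, for both clusters and the genome. Right, the width of each peak in kb as points, with the median and quartiles in black, AKBA left of DMSO, and the genome shown by its median and quartiles alone. The cluster shares of 21.4 to 36.4% lie below the genome values of the same list, 32.2 and 54.5%.

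Peaks without a counterpart lay at varied distances from the other list. On chromosome 5 the median distance to the nearest DMSO peak was 13.8 kb for the 44 AKBA peaks without overlap, against 20.3 kb for the 8925 such peaks of the genome. The median distance to the nearest AKBA peak was 7.74 kb for the 21 DMSO peaks without overlap, against 7.56 kb for the 4041 of the genome. Of the 44 AKBA peaks 3 lay within 1 kb of a DMSO peak (6.82%, against 8.22% over the genome) and 14 beyond 20 kb (31.8%, against 50.4%). Of the 21 DMSO peaks 3 lay within 1 kb (14.3%, against 19.3%) and 3 beyond 20 kb (14.3%, against 33.7%). On chromosome 16 the median distance was 24.9 kb for the 11 AKBA peaks and 24.9 kb for the 7 DMSO peaks without overlap. Beyond 20 kb lay 7 of these AKBA peaks (63.6%, against 50.4% over the genome) and 5 of these DMSO peaks (71.4%, against 33.7%). These shares were above those of the genome, unlike on chromosome 5, and no peak of either list lay within 1 kb. The AKBA peak farthest from a DMSO peak on chromosome 16 was 209 kb away, and the farthest on chromosome 5 was 160 kb away.

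Where peaks overlapped, the AKBA peak was usually the wider one, and each of the 16 pairs joined 1 peak of each list. It was wider in 11 of 12 pairs on chromosome 5 and in 3 of 4 on chromosome 16, against 73.1% of the 3510 pairs of this kind over the genome. The median difference, AKBA minus DMSO, was 1146 bp on chromosome 5 with a range from -486 to 2123 bp. On chromosome 16 the median was 195.5 bp with a range from -1077 to 2317 bp. The pair with the wider DMSO peak on chromosome 16 consisted of an AKBA peak from 55089874 to 55091586 (1713 bp) and a DMSO peak from 55090535 to 55093324 (2790 bp), the widest DMSO peak of either cluster. On chromosome 5 the exception was an AKBA peak of 482 bp from 2830285 to 2830766 and a DMSO peak of 968 bp from 2830365 to 2831332.

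**Figure D4:**
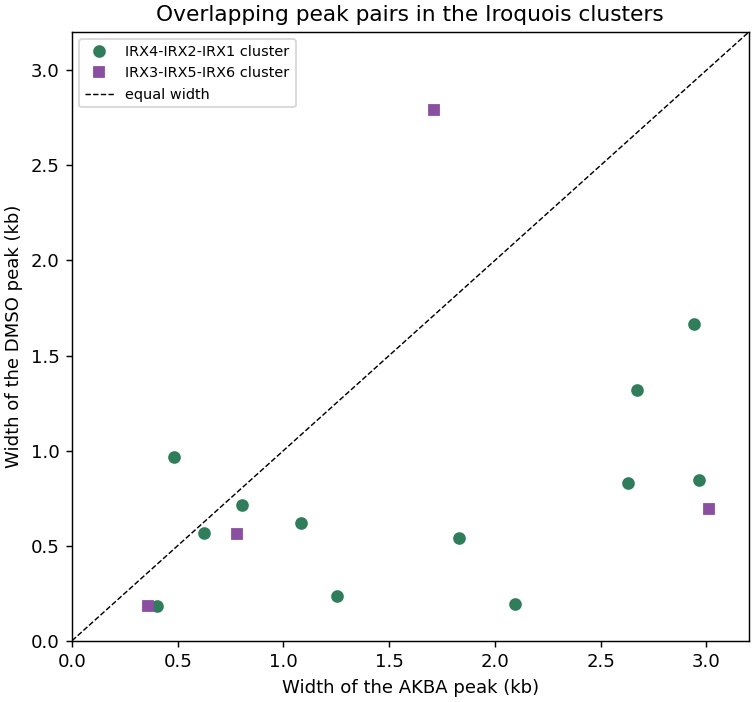
Width of the AKBA peak (x axis, kb) against the width of the overlapping DMSO peak (y axis, kb) for the 12 pairs of the IRX4-IRX2-IRX1 cluster and the 4 pairs of the IRX3-IRX5-IRX6 cluster, with a dashed line at equal width. Points below the line have the wider AKBA peak, and 2 of the 16 pairs lie above it.

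The fourth question was where along the clusters the mark lay, and the clusters were alike in 1 respect: the end at the higher coordinates was covered more than the end at the lower ones, in both lists. In the 100 kb at the IRX1 end there were 3 AKBA peaks covering 4078 bp and 2 DMSO peaks covering 2836 bp. In the 100 kb at the IRX6 end there were 3 AKBA peaks covering 5084 bp and 3 DMSO peaks covering 1988 bp. At the opposite IRX4 end, 2 AKBA peaks covered 1315 bp and 2 DMSO peaks 596 bp. The 100 kb at the IRX3 end held no peak of either list. These 4 stretches were set after the peaks had been seen.

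Peaks of both lists were pooled and joined into domains across gaps of up to 5 kb. A domain may thus hold peaks of 1 list alone, or a single peak. The IRX1 end carried 1 of the 2 marked domains of at least 10 kb. That domain ran from 3583080 to 3596543, spanned 13.5 kb, and was covered to 30.3% by 3 AKBA peaks and to 21.1% by 2 DMSO peaks. Its largest AKBA peak, from 3593871 to 3596543, was 2673 bp wide, and its score of 5.22 was at or above that of 91.2% of the AKBA list. The score is a value of the authors for each peak with no stated scale. It is compared here only with scores of its own list, except in settings with a score minimum or equal peak numbers. That AKBA peak enclosed a DMSO peak of 1316 bp from 3594472 to 3595787 with a score of 3.00, which was at or above 49.1% of the DMSO list. Over the domain AKBA peaks covered 1242 bp more than DMSO peaks, and 321 bp more when both lists had equal peak numbers. The other DMSO peak of the domain, from 3590417 to 3591936 and 1520 bp wide, had no AKBA overlap and lay 1934 bp from the nearest AKBA peak.

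The IRX6 end carried the widest domain of its cluster, from 55356894 to 55363661 and 6768 bp in span. A single AKBA peak of 3012 bp, wider than any other peak of the clusters, ran from 55356894 to 55359905 with a score of 3.35. It enclosed a DMSO peak of 695 bp from 55358376 to 55359070, whose score of 2.22 was at or above only 4.65% of the DMSO list. A further DMSO peak of 932 bp, from 55362730 to 55363661, lay 2824 bp beyond the AKBA peak. AKBA peaks of 1456 bp (55348214 to 55349669) and 616 bp (55372325 to 55372940) stood on either side without a DMSO counterpart. The domain at the IRX6 end was thus marked in both conditions, over 3012 bp with AKBA and 1627 bp with DMSO.

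Between its ends the IRX4-IRX2-IRX1 cluster was marked most densely in its middle. In 9 consecutive steps of 100 kb, from 2350000 to 3249999, each step held peaks of both lists. This stretch of 900 kb, chosen after its values were seen, held 46 of 56 AKBA peaks and 28 of 33 DMSO peaks. AKBA peaks covered 4.05% of it and DMSO peaks 1.86%. The 100 kb at the IRX1 end, with 4.08 kb under AKBA and 2.84 kb under DMSO peaks, were not less densely covered. AKBA bases exceeded DMSO bases in 13 of the 18 steps of the window, DMSO bases in 1, and 4 steps held neither. The exception was the step from 2450000 to 2549999, with 7 peaks in each list that covered 4728 bp (AKBA) and 4735 bp (DMSO). No share over the genome was computed for such steps, and AKBA peaks covered 1.94 times the DMSO bases over the genome. The greatest contrast in kb was in the step from 2650000 to 2749999, with 5.27 kb in 6 AKBA peaks and 1.05 kb in 2 DMSO peaks.

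In the IRX3-IRX5-IRX6 cluster the longest run of steps with peaks of both lists lay towards the IRX6 end. It was 4 steps long, from 54980000 to 55379999, and was likewise chosen after its values were seen. This run held 10 of 15 AKBA peaks and 9 of 11 DMSO peaks. AKBA peaks covered 2.68% of it and DMSO peaks 1.66%. It held 74.3% of the AKBA bases and 86.2% of the DMSO bases of its window, and the run on chromosome 5 held 79.5 and 80.8% of those of its own. Over the 12 steps of that window AKBA bases were more numerous in 7, DMSO bases in 0, and 5 steps held neither. Here too no share over the genome was computed.

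**Figure D5:**
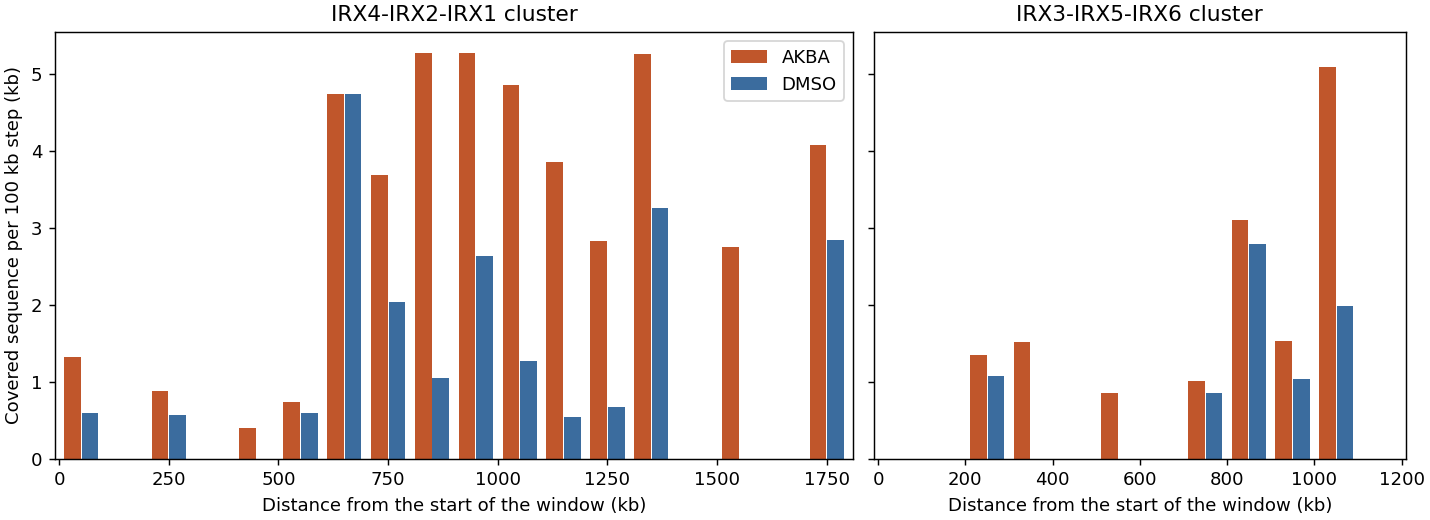
Sequence covered by peaks in kb (y axis) per step of 100 kb from the start of each window (x axis, kb), with AKBA bars left of DMSO bars. The last step of the IRX3-IRX5-IRX6 window is 20 kb long. In the IRX4-IRX2-IRX1 window both lists are present in every step from 500 to 1400 kb, and in the IRX3-IRX5-IRX6 window the tallest bar is the AKBA bar of 5.08 kb next to the IRX6 end.

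Long stretches of both clusters were free of peaks. Stretches of at least 50 kb without a peak of either list made up 50.2% of the chromosome 5 window (7 stretches). On chromosome 16 they made up 68.0% of the window (6 stretches). The minimum of 50 kb was set after the peaks had been seen. No such share was computed for the genome, where peaks were sparser, at 4.49 AKBA and 3.04 DMSO peaks per Mb. The longest stretches on chromosome 5 ran from 1913586 to 2118004 (204 kb) and from 2126396 to 2329184 (203 kb). Both lay between the IRX4 end and the marked middle. Between these lay an AKBA peak of 255 bp and an overlapping pair of 626 bp (AKBA) and 565 bp (DMSO). On chromosome 16 the longest ran from the window's start at the IRX3 end to 54510950 (231 kb) and from 54795495 to 55004383 (209 kb). Within single lists the longest peak-free stretches were in the DMSO list, 390 kb on chromosome 5 from 3200467 to 3590416 and 455 kb on chromosome 16 from 54549676 to 55004547. Wholly inside these DMSO-free stretches lay 5 AKBA peaks on chromosome 5 and 4 on chromosome 16, counted after the peaks had been seen. Since the stretches were picked for having no DMSO peak, any peak inside them could only be an AKBA peak. No such count was made for AKBA-free stretches or for the genome.

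Single peaks in these sparse parts included some of the more prominent ones of the clusters. An AKBA peak of 2495 bp from 3360473 to 3362967 was the widest AKBA peak of the chromosome 5 cluster without a DMSO overlap, and it made the greatest AKBA excess of any 10 kb bin there. The nearest DMSO peak was 160 kb away. The highest-scoring AKBA peak of that cluster, from 3430529 to 3430779, was 251 bp wide with a score of 5.43 and likewise lay 160 kb from the nearest DMSO peak. Both lay between the marked middle and the IRX1 end.

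The greatest DMSO excess of the chromosome 5 cluster was a run of 3 DMSO peaks from 2541193 to 2549749. These peaks of 340, 1200 and 1388 bp covered 2928 bp in a span of 8557 bp where the AKBA list had no peak, the widest domain with peaks of 1 list alone. A further pair of DMSO peaks from 3185725 to 3189164 covered 1737 bp, and the wider of them, 1577 bp, was the second widest DMSO peak of the cluster. The widest AKBA domains without a DMSO peak were from 2853019 to 2859602, with 3 peaks covering 836 bp, and from 2519836 to 2525046, with 3 peaks covering 1626 bp. In the lists as deposited, differences in both directions thus stood side by side within the middle of the cluster. Every peak of the DMSO run and of the DMSO pair had a score below 3, the highest being 2.997. That highest score was at or above 49.1% of the DMSO list. Scores of the AKBA domain from 2853019 to 2859602 were 3.01 to 4.91, at or above 50.8 to 88.7% of the AKBA list. Those of the other AKBA domain were 2.27 to 3.80, at or above 11.9 to 73.4% of that list. Whether scores of the 2 lists share a scale is not stated.

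On chromosome 16 the corresponding DMSO run was shorter. The widest domain with 1 list alone held 2 DMSO peaks of 896 and 172 bp from 54546889 to 54549675, and the narrower of them had the highest DMSO score of the cluster, 4.30. The greatest DMSO excess of a 10 kb bin, 2790 bp against 1586 bp in the AKBA list, came from the overlapping pair whose DMSO peak ended at 55093324. The widest AKBA peaks without a DMSO overlap were those of 1456 bp near the IRX6 end and 1165 bp from 55270500 to 55271664.

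The second domain of at least 10 kb lay in the middle of the chromosome 5 cluster from 2461992 to 2476341. It spanned 14.4 kb with 4 AKBA peaks covering 3102 bp and 3 DMSO peaks covering 1647 bp, a difference of 1455 bp, and 1 pair overlapped, from 2475364 to 2476168 in the AKBA list and from 2475629 to 2476341 in the DMSO list. With a score of at least 3 it held 3 AKBA and 0 DMSO peaks, a difference of 2473 bp, and with equal peak numbers the difference was 826 bp. Of the 68 domains of both clusters, 20 held peaks of both lists, 35 AKBA peaks alone and 13 DMSO peaks alone. The share with both lists was 29.4%, against 35.7% of the 11947 domains of the genome. Of those 11947 domains, 5568 held AKBA peaks alone and 2117 DMSO peaks alone. The share spanning at least 10 kb was 2.94%, against 3.83% over the genome.

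The widest overlapping pairs of the middle stretch coincided in part. The widest AKBA peak of the chromosome 5 cluster, from 2656648 to 2659614 (2967 bp), enclosed a DMSO peak of 844 bp. The next, from 2822669 to 2825610 (2942 bp), shared 1174 bp with the widest DMSO peak of that cluster, from 2822175 to 2823842 (1668 bp). The DMSO peak with the highest score of both clusters, 5.51, was 193 bp wide from 3150119 to 3150311, and an AKBA peak of 2094 bp overlapped 125 bp of it. The highest-scoring AKBA peak of the IRX3-IRX5-IRX6 cluster (55186581 to 55186940, score 5.03) was 360 bp wide and overlapped a DMSO peak of 184 bp. Of the 12 peaks with the highest scores, 3 in each list and cluster, 8 were narrower than the median of their list. Over the whole lists this held for 6568 of 13155 AKBA and 4445 of 8890 DMSO peaks, a share that the median itself sets. Among all peaks of the 2 clusters it held for 39 of 71 AKBA and 21 of 44 DMSO peaks. The count among the 12 was made after the peaks had been seen, and a link between score and width was not tested.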

How the data were processed

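H3K27me3 peak lists of 1 AKBA and 1 DMSO library were used, and input DNA was not analysed here. Reads were processed with BWA, STAR and MACS2 on build hg19, per the submitters' processing notes. The sources used here do not give versions, the peak threshold, the treatment of duplicates or the use of input. The score that the authors deposited for a peak has no stated scale and was used within its own list, except that alternatives with a score minimum or an equal number of peaks apply it to both lists. Depth is unknown. A narrowest width of 214 bp (AKBA) and 160 bp (DMSO) and a smallest gap of 857 and 641 bp between peaks can change counts and widths before any comparison.

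Peaks overlapping a window by at least 1 bp were kept. Coordinates are 1-based hg19 positions. Overlap, covered bases, bins, domains and promoter CpG counts were computed with numpy 2.4.6, scipy 1.17.1 and pandas 2.3.3 under Python 3.11.15, and overlaps were checked against bedtools 2.31.1 and on moved copies of peaks. No test across libraries was possible. Peaks named were the 3 widest and 3 highest-scoring of each list and cluster, domains of at least 10 kb, the widest domains of 1 list alone, the longest peak-free stretches and the bins with the greatest differences, and some of these are given by their counts or ranges. Others, said to be so, were chosen after their values were seen. The windows, members and rules were chosen with earlier results of these data known. A list of other TALE homeobox genes was not analysed here for want of an annotation in the build of the peaks.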

Additional observations from a re-analysis of the deposited data

How the results depend on the processing

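Of 64 values for 8 results under 9 alternatives, 49 kept their direction and stayed within the counting interval of the main value or, for covered bases, within 1.5 times of it. The ratio of peak numbers in the IRX3-IRX5-IRX6 cluster, 1.36, turned round to 0.857 with a score of at least 3 (6 AKBA and 7 DMSO peaks) and to 0.636 with equal peak numbers (7 and 11 peaks), where AKBA peaks alone are removed by construction. At equal numbers the ratio on chromosome 5 was 1.06, the base ratio on chromosome 16 was 1.23, and 57.1% of AKBA peaks there overlapped. With a score of at least 3, 8.0% of AKBA and 18.2% of DMSO peaks overlapped on chromosome 5. Peaks of at least 1 kb on chromosome 16 numbered 5 AKBA and 1 DMSO, which gave a peak ratio of 5.0, a base ratio of 2.99 and 100% of DMSO peaks overlapping. On chromosome 16 the base ratio was 1.10 and the peak ratio 1.67 once peaks up to 5 kb apart were joined. A reciprocal overlap of at least 50% left 3.57% of AKBA and 6.06% of DMSO peaks shared on chromosome 5, and 6.67 and 9.09% on chromosome 16. Joining DMSO peaks across gaps below 857 bp changed nothing in the clusters. On chromosome 16 neither did leaving out peaks at exactly the narrowest width of their own list, since it held none. The 49 values above include these unchanged ones. No paired analysis was possible because each condition has 1 library. Unknown depth and the small number of peaks on chromosome 16 limit all comparisons.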
